A study of Acanthocheilonema viteae with 2 samples.

Results

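The miR-36 family was examined in small RNA released into culture medium by adult Acanthocheilonema viteae, a filarial nematode that lives in rodents. There was 1 library from females and 1 from males, cultured apart for up to 3 weeks in RPMI-1640 with penicillin, streptomycin and L-glutamine, and in both the RNA came from the washed pellet of high-speed centrifugation of cleared, filtered medium. Members were the entries with a nematode species code and a number from miR-35 to miR-42, together with 1 predicted candidate that begins with the whole mature form of miR-36c. This gave 4 members on 5 of the 384 deposited entries: miR-36c, its longer candidate form (PC-3p-65_3608, on 2 entries that were summed), miR-36a, and the opposite arm of miR-36a. The question is how female and male secretions compare. Neither sex was replicated, so every ratio compares these libraries and not the sexes, no test was made, and the 95% intervals cover counting error only.

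The miR-35 family of Caenorhabditis elegans is supplied to the egg and made in the early embryo, where its members act redundantly and are needed for embryonic development. A miRNA is cut from a hairpin as a duplex, 1 arm of which is loaded into an Argonaute protein while the opposite arm is mostly lost. The loaded arm finds its targets mainly through the seed near its 5′ end, and in this family the loaded arm is the 3p arm. Female filariae carry developing embryos.

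The sequences show how the members are related. All are as deposited, written 5′ to 3′ with bases 2 to 8, the seed, in capitals.
bma-miR-36c-3p_R-1_1ss20GA: tCACCGGAgacattgttccac
PC-3p-65_3608: tCACCGGAgacattgttccact
bma-miR-36a_R+1_1ss20TC: tCACCGGGtgcacattcggcc
bma-mir-36a-2-p5_1ss13CT: cAGGATGTgcattgtggttgat
The candidate is miR-36c with 1 more base, T, at its 3′ end, and so has the same seed. Mature miR-36a and miR-36c share their first 7 bases and first differ at base 8, the last of the seed. The change is G8A with the miR-36a base first and positions counted from the 5′ end. From that base on they diverge, with 10 of 21 positions different when set side by side without gaps. Aligned with gaps, they are identical in 15 of 23 columns. Of 303 distinct deposited sequences, 3 have the family's bases 2 to 7, and all 3 are these 3p forms.

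The names carry differences from the database form of Brugia malayi, the filarial species coded bma. In all 55 names with a substitution suffix, the deposited sequence holds the second letter of the suffix at the stated position, counted on the unshifted 5′ end in 4 of them. Read this way, miR-36c carries G20A, miR-36a T20C and the opposite arm C13T, so none of these changes lies in a seed. The suffix R-1 marks miR-36c as 1 base shorter at its 3′ end than the named form, which makes that form 22 bases, the length of the candidate. The database sequences were not used here, so this reading rests on the names.

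The family made up a large part of the deposited worm reads in both libraries. Its members summed to 50597 reads in the female library, or 17.3% of all deposited reads (95% interval 17.1 to 17.4), and to 6248 reads in the male library, or 8.34% (8.15 to 8.54). Worm reads here mean those of nematode-named entries plus candidates. Entries were sorted by name alone, and the origin of neither kind was tested. The intervals on this scale do not cover an error in that sorting. Of worm reads, the members were 18.5% in the female library, against 17.2% in the male one. On this scale the ratio was 1.08 (1.05 to 1.11). As a part of worm reads the family was thus about the same in both libraries. Over all reads its share was 2.07 times as high in the female library (2.02 to 2.13). The source of the family's reads was not tested.

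**Figure D1:**
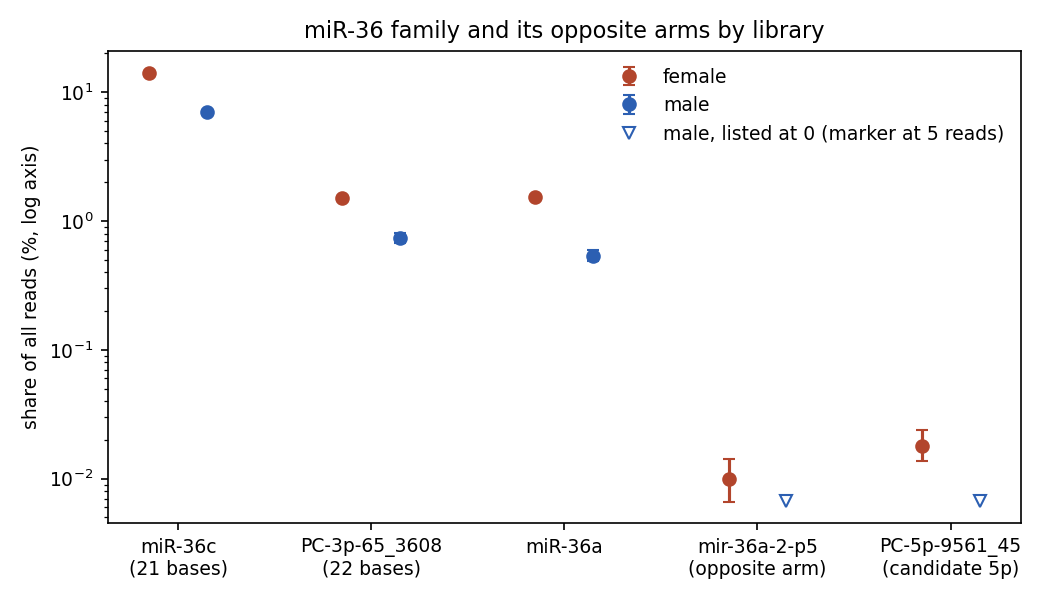
Share of all reads (log axis) of the 4 members and of the 5p candidate PC-5p-9561_45 in the female (red) and male (blue) library. Bars are exact binomial 95% intervals, smaller than the points for the abundant forms, and an open triangle marks an entry listed at 0, drawn at 5 reads. The 3p forms lie at 14.2%, 1.50% and 1.55% in the female library, and at 7.07%, 0.737% and 0.540% in the male library.

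The 21-base miR-36c carried most of the family. It had 41634 reads in the female library (14.2% of reads, 14.1 to 14.3) and 5292 in the male library (7.07%, 6.88 to 7.25). Among all distinct sequences it had rank 3 for females and rank 2 for males, and among worm sequences rank 3 for females and rank 1 for males. Within the family it took 82.3% of female and 84.7% of male reads. Its share of all reads was 2.01 times as high in the female library (1.96 to 2.07), and its share of worm reads 1.05 times (1.02 to 1.08).

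The 22-base candidate form of miR-36c followed it closely. It had 4400 reads in the female library (1.50%, 1.46 to 1.55) and 552 in the male library (0.737%, 0.677 to 0.801). Its ratio was 2.04 over all reads (1.87 to 2.23) and 1.06 over worm reads (0.971 to 1.16). Within each library it amounted to 10.6 reads per 100 of the 21-base form in the female and 10.4 in the male. The ratio of these, which no scaling of the libraries can move, was 1.01 (0.923 to 1.11), so any difference in the length make-up of miR-36c lay within counting error, at most 1.11 times. Both rows of the candidate hold equal values, as do the rows of all 78 repeated sequences. Counting the rows once therefore cannot move the ratio, and it widened the interval to 0.891 to 1.16. With both lengths together miR-36c held 15.7% of female and 7.80% of male reads.

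Other length forms in the table give the setting for this. In 8 other pairs, a worm sequence that begins with a whole shorter one was read with that shorter one in both libraries. Their ratios ran from 0.593 to 1.25, each with an interval that holds 1, and most rest on far fewer reads. The lowest, 0.593, 0.673 and 0.745, share the same shorter sequence, PC-3p-7656_58, with 17 male reads. The 8 pairs are therefore not all independent. Of the 8, 4 differ by 1 base, as the miR-36c forms do. Their ratios were 0.795 for bma-miR-236 (0.374 to 1.73), 0.809 for bma-miR-71_R+4 (0.513 to 1.32), 1.17 for bma-miR-34 (0.427 to 4.00) and 1.03 for bma-miR-2c_R+1_1ss1CT (0.853 to 1.25). The last, of the miR-2 family, is the one whose longer form is also a candidate, PC-3p-1163_341, which had 15.7 reads per 100 of the shorter in the female library, against 15.3 in the male one.

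The other mature member, miR-36a, lay further on the female side. It had 4534 reads in the female library (1.55%, 1.50 to 1.59) and 404 in the male library (0.540%, 0.488 to 0.595). Its rank among all distinct sequences was 10 in the female library, against 40 in the male one. Its ratio was 2.87 over all reads (2.59 to 3.19) and 1.49 over worm reads (1.35 to 1.66). There were 10.9 reads of miR-36a per 100 of the 21-base miR-36c in the female library and 7.63 in the male library. The ratio of these was 1.43 (1.28 to 1.59), and with both lengths of miR-36c it was 1.42 (1.28 to 1.59). The paralogs, which differ in the last base of the seed, were thus present in different proportions in these libraries beyond counting error. The spread between cultures of the same sex is not known.

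**Figure D2:**
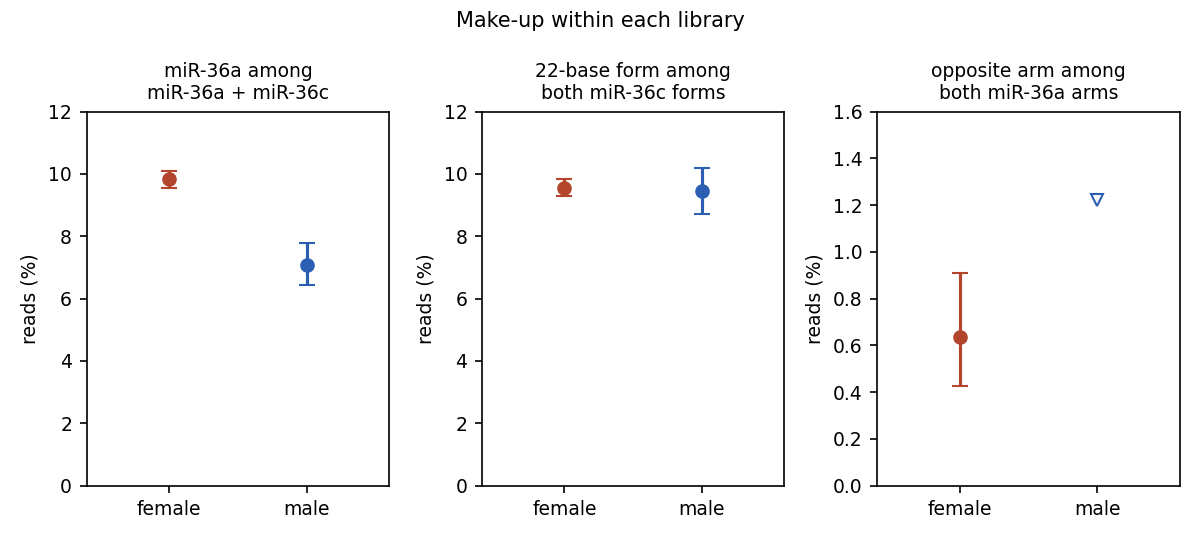
Percent of reads in the female (red) and male (blue) library taken by miR-36a among miR-36a and 21-base miR-36c, by the 22-base form among both lengths of miR-36c, and by the opposite arm among both arms of miR-36a, with exact binomial 95% intervals. The first differs (9.82% in the female, 7.09% in the male), the second does not beyond its intervals (9.56% and 9.45%), and in the third the open triangle stands at 1.22%, the share that 5 reads would make in the male library.

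The opposite arm of miR-36a was rare. It had 29 reads in the female library and was listed at 0 in the male library. In the female library it was 0.636% of the reads of both arms (0.426 to 0.911). The table lists few values under 5 reads. Of the distinct sequences above 0, 1 of 264 in the female and 1 of 244 in the male library has fewer, while 16 and 13 stand at exactly 5, so a 0 may stand for up to about 5 reads. Against 5 reads the share of this arm was at least 1.48 times as high in females on the scale of all reads, and at least 0.772 times on that of worm reads, before counting error. In the male library 5 reads would be 1.22% of both arms, above the female value, so no difference in arm use was detectable at this depth.

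The arm ratio of miR-36a lay near the middle of those of the nematode miRNAs in the table. Both arms are listed for 17 of them by name, 16 with the lesser arm above 0 in the female library. In these 16 the lesser arm took a median of 0.736% of the reads of both in the female library, with a range of 0.00989% to 31.0%. The miR-36a arm ranks 7 from the lowest. In the male library 10 of the 16 lesser arms were at 0.

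No opposite arm of miR-36c is listed by name, but a 5p candidate pairs with it. The candidate PC-5p-9561_45 was chosen after its values were seen, because its 2 rows alternate with those of PC-3p-65_3608 in the deposited table. The 2 5p sequences are shown with the bases in capitals that pair with their mature arm in the lowest-energy duplex computed with RNAduplex.
PC-5p-9561_45, against miR-36c: aGGATAATGTTTCaCGGTtGAgc
bma-mir-36a-2-p5_1ss13CT, against miR-36a: caGGATGTGCATtgTGGTtGAt
The first pairs with miR-36c over 18 base pairs at -21.1 kcal/mol and leaves 3 bases of miR-36c and 2 of the candidate unpaired at their 3′ ends. Of the other 302 sequences in the table, 1 gave a lower energy with miR-36c, and the median was -7.45 kcal/mol. That 1, at -21.3 kcal/mol, was a nematode-named entry outside the family. The named opposite arm pairs with miR-36a over 16 base pairs at -19.6 kcal/mol. It ranked only 5 of 302 for miR-36a, where the median was -9.20 kcal/mol. The lowest energy with miR-36a, -21.4 kcal/mol, came from a mammal-named entry. Swapped, PC-5p-9561_45 gave -10.4 kcal/mol with miR-36a, and the named arm gave -8.9 kcal/mol with miR-36c. A predicted duplex is a description of the letters and does not show that these sequences come from 1 hairpin. The alternating rows may mean that both candidates were predicted as arms of 1 hairpin. Strong pairing would then follow from that choice.

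Summed over its rows, PC-5p-9561_45 had 53 reads in the female library and was listed at 0 in the male library. Its share was at least 2.71 times as high in the female over all reads, and at least 1.41 times over worm reads, against 5 reads. Set against both lengths of miR-36c it was 0.115% in the female library (0.0862 to 0.150), where 5 reads would be 0.0855% in the male library. The value at 5 reads lies just below the interval of the female share. Up to 5 reads would carry a wide counting error of their own, so no difference was detectable here either.

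The libraries differ in what else they hold, and this moves with every ratio over all reads. Mammal-named entries took 6.71% of female and 51.4% of male reads, and the deposited totals were 292740 and 74881.3 reads, 3.91 times as many in the female. On the scale of worm reads each ratio is lower by 1.92 times. The part of these mammal-named reads in the ratios was not tested beyond giving both scales. Relations between members within a library do not depend on it.

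Read against the rest of the table, the family's position also depends on the scale. By shares of all reads, 3 of the 4 members exceeded the male library by 2-fold or more in the female one, as did 14.3% of all 287 entries with at least 10 reads and 28.6% of the 112 such worm entries. Of the 3, miR-36c and its candidate form passed only just, with intervals that reach below 2 (from 1.96 and 1.87). No member was male-high by this rule, against 62.0% of all and 18.8% of worm entries. By shares of worm reads none of the 4 was past 2-fold either way, against 6.25% of worm entries on the female side and 33.9% on the male side. Among 82 worm sequences read in both libraries, an order that no scaling changes, miR-36a was number 15 from the female end, the candidate 25 and miR-36c 26. Their ratios were 2.39, 1.69 and 1.67 times the median of these sequences, which itself had a ratio of 1.20 over all reads.

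**Figure D3:**
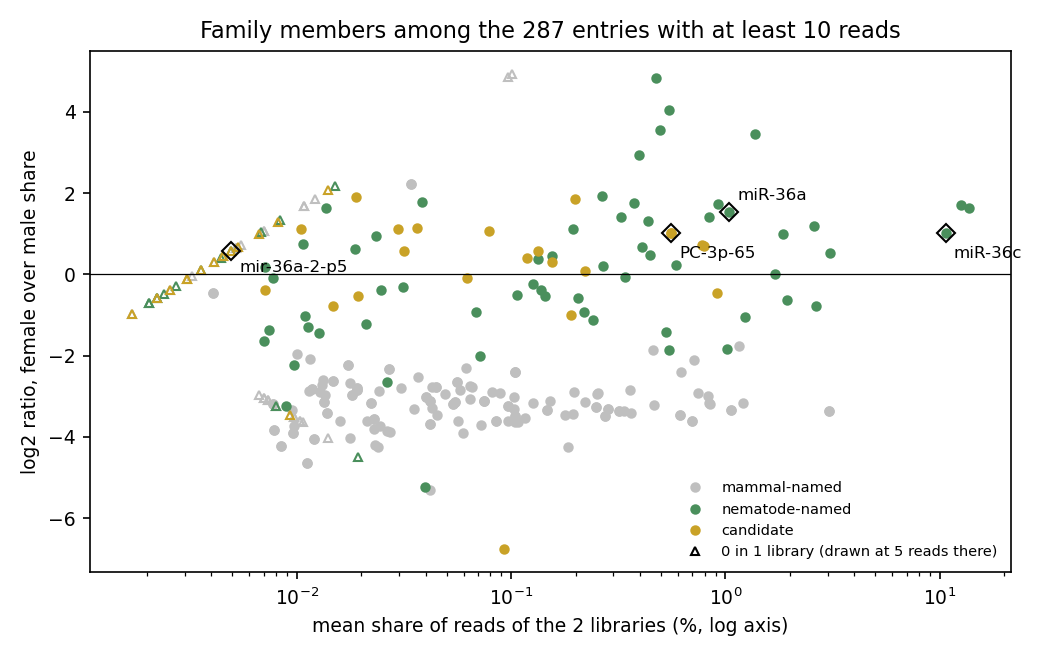
Log2 ratio of the female over the male share of all reads, against the mean share (log axis), for the 287 entries with at least 10 reads in a library. Diamonds mark the members, the candidate at the share of 1 of its 2 rows, and open triangles mark entries at 0 in 1 library, drawn at 5 reads there. The 3p forms lie at 1.01 (miR-36c), 1.03 (candidate) and 1.52 (miR-36a), above most mammal-named entries.

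The entries nearest in ratio were sought among 35 other worm sequences with at least 100 reads in both libraries, 4 of them of the miR-100 family. The nearest to miR-36c (log2 ratio 1.01) were bma-miR-100c_R+2_1ss12CT at 0.99, bma-miR-100b_R+1 at 1.20 and the candidate PC-3p-281_1188 at 0.73. The nearest to miR-36a (1.52) were bma-miR-92_R+2 at 1.41, bma-miR-5843_1ss11TC at 1.40 and bma-miR-100a_R+1 at 1.64. With 2 libraries this likeness is a closeness of 1 ratio and nothing more. The miR-100 family corresponds to the miR-51 family of C. elegans, which is needed in the embryo. As a list, 5 nematode-named miR-100 entries had at least 10 reads, among them the lesser arm bma-mir-100d-p3_1ss19AG with 13 female and 0 male reads. Over all reads 3 of the 5 were female-high by the 2-fold rule, against 28.6% of worm entries and 14.3% of all entries. Over worm reads 0 of the 5 were, against 6.25% of worm entries. The median log2 ratio of the 5 over all reads was 1.20, against 0.22 over all 112 worm entries, with entries at 0 taken as 5 reads.

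Few other sequences come near the family's seed. A single base of the 7 separates each of these candidates from a mature member, and they are shown because they could be taken for further members.
PC-3p-117_2488: tCACTGGGagtactattctttt
PC-3p-10687_40: tCAACGGGtcactctcttcct
PC-5p-2589_165: cCACCTGAaactgggtctcaacct
From miR-36a, the first differs by C5T and the second by C4A, and from miR-36c the third differs by G6T. The abundant one, PC-3p-117_2488, had 2868 reads in the female library, against 456 in the male one, a ratio of 1.61 over all reads (1.46 to 1.78) and 0.838 over worm reads. PC-3p-10687_40 had 87 reads in the female library, against 6 in the male one. Its ratio was 3.71 over all reads (1.64 to 10.4) and 1.93 over worm reads (0.852 to 5.41). PC-5p-2589_165 had 177 reads from females, against 48 from males. Its ratio was 0.943 over all reads (0.682 to 1.33) and 0.491 over worm reads (0.355 to 0.691). Over all reads, the interval of PC-3p-117_2488 overlaps neither that of miR-36a (2.59 to 3.19) nor that of miR-36c (1.96 to 2.07). The wide interval of PC-3p-10687_40 overlaps both, and that of PC-5p-2589_165 overlaps neither. These intervals cover counting error only.

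The size of the female excess hung on the scale for the 3 mature 3p forms, though each ratio was above 1 on every scale. Over worm reads their ratios were 1.05 to 1.49, and the interval of the candidate, 0.971 to 1.16, holds 1. On the deposited normalized values the ratios were 9.40 for miR-36c, 9.52 for the candidate and 13.4 for miR-36a. With edgeR's TMM and DESeq2's size factors they ran from 10.9 to 19.2. Both methods assume that most entries are unchanged, and both were run over all 384 entries, 255 of them mammal-named. Over all reads, 62.0% of the 287 entries with at least 10 reads were male-high by the 2-fold rule. The part this has in the larger ratios was not tested. On each scale miR-36a lay above both forms of miR-36c by the same factor, since scaling moves all entries of a library alike.

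**Figure D4:**
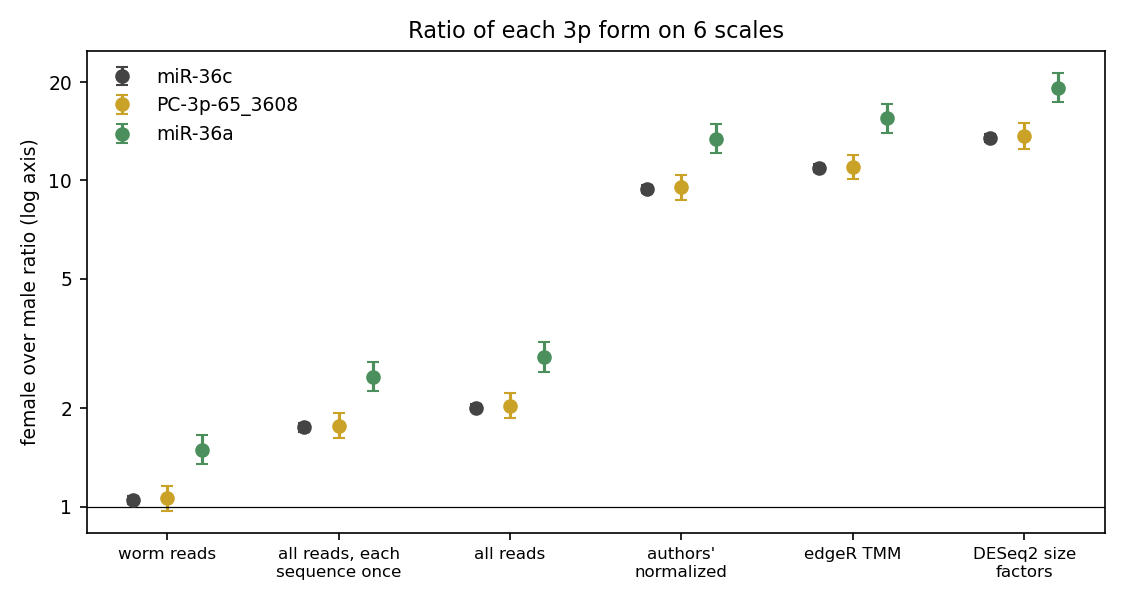
Ratio of the female over the male library (log axis) for the 3 mature 3p forms on 6 scales, with exact conditional binomial 95% intervals. The points move together, from 1.05, 1.06 and 1.49 over worm reads to 13.5, 13.7 and 19.2 with DESeq2 size factors, and the horizontal line marks a ratio of 1, which the interval of the candidate over worm reads includes.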

How the data were processed

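Small RNA of the high-speed pellet of culture medium was sequenced after Illumina TruSeq small RNA preparation, per the labels' protocols. Which aligner and database release were used is not stated in the labels. The authors deposited expected counts (raw values per the file headers, with parts of reads in 126 entries, mostly repeated sequences) and normalized values, treated here as a signal, which equal the counts times 1.09 (female) and 0.915 (male).

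Counts were rounded for intervals, edgeR and DESeq2. Shares have exact binomial (Clopper-Pearson) intervals. Ratios of shares have exact conditional binomial intervals, and ratios of within-library ratios exact conditional odds-ratio intervals (scipy 1.17.1), all at 95%. No molecular identifiers mark single molecules, so these cover counting error only. An entry counted as higher had a share at least 2 times as high, with at least 10 reads in a library. A floor of 3 reads for a 0 had been planned. It was replaced by 5 after seeing that the table lists almost no lower value. A ratio against it is a bound, and no entry was called higher in a library where it is at 0. Scaling alternatives used edgeR 4.0.16 and DESeq2 1.42.0, and duplexes ViennaRNA 2.7.2. The size rule was run on simulated counts with 60 entries changed 4-fold, each in a random direction. These counts lacked the unequal part of mammal-named reads in the real libraries, so they do not show how the rule performs here.

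Named entries were the members, those within 1 base of a mature member's seed, and the 3 worm entries nearest in log2 ratio to miR-36c and to miR-36a. PC-5p-9561_45 and the length pairs named outside this rule were chosen after their values were seen. The members and lists were chosen with earlier results of these data known.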

Additional observations from a re-analysis of the deposited data

How the results depend on the processing

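The family's ratio of 2.07 over all reads was 1.08 over worm reads, 1.80 with identical sequences counted once in the total, 9.67 on the authors' normalized values, 11.2 with TMM and 13.9 with DESeq2 size factors. TMM and DESeq2 size factors were computed over all entries, most of them mammal-named. It was 2.07 without the candidate, with miR-36c and miR-36a only, and with the candidate's rows counted once. Entries past the 2-fold rule on the female side numbered 41, against 11 over worm reads, 27 with identical sequences counted once, 114 on the authors' values, 117 with TMM, 119 with DESeq2 size factors and 7 among worm entries over worm reads. On the male side they numbered 178, against 56 with TMM, 23 with DESeq2 size factors, 65 with at least 100 reads, 82 on the authors' values, 21 among worm entries and 38 among worm entries over worm reads. The limits to worm entries and the 5 reads used for a 0 were chosen after seeing the data. With the planned 3 reads for a 0, 53 entries were past the rule on the female side and 178 on the male side. With the planned 3 reads the bound for the opposite arm of miR-36a was 2.47 over all reads, past the size rule, against 1.48 with 5 reads, and its ratio relative to the mature arm was 0.861, against 0.517 with 5 reads. The ratio of miR-36a to miR-36c was 1.43, and 1.42 with the candidate added to miR-36c. That of the length forms was 1.01. The authors' normalized values, a constant times the counts of each library, could move neither ratio. Counting the candidate's equal rows once could not move the ratio of the length forms. No paired analysis was possible because there is 1 library per sex.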
